A study of Mus musculus with 4 samples.

Results

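The 10 genes described here cover the synthesis, breakdown, transport and sensing of prostaglandins in cultured mouse cardiac fibroblasts. They are the cyclooxygenases Ptgs1 and Ptgs2, the terminal synthases Ptges, Ptgis and Ptgds, the receptors Ptger2, Ptger4 and Ptgfr, the carrier Slco2a1 and the degrading dehydrogenase Hpgd. They were found by symbol among 55359 genes of a count table, and all 10 had a row and a read. The list was selected on earlier results of this same comparison, among them the log2 fold change of Hpgd, so the members' values and adjusted p-values describe their place in the fit and are no independent test. In the 2 OENr4a3 libraries, primary wild-type heart fibroblasts of mice aged P1-P3 had been made to overexpress Nr4a3, an orphan nuclear receptor. The 2 OECtrl libraries came from the same kind of cells with an overexpression control. By the design text, the question was why extra Nr4a3 lowers the yield of induced cardiomyocytes in direct reprogramming. Collection was on day 10 by the titles and on day 7 of reprogramming by the design text. The sources used here do not give the vector, its promoter or any reprogramming factors given to these cells. No label says whether replicates were separate cultures, so each p-value covers the spread between libraries, which may be technical.

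Prostaglandins are lipid signals made from arachidonic acid, which phospholipases free from membranes. A cyclooxygenase turns it into prostaglandin H2, and terminal synthases turn that into prostaglandin E2, prostacyclin, prostaglandin D2 and others. They leave the cell, act on G protein-coupled receptors of the same or nearby cells, and are taken back up by a carrier and inactivated by a cytosolic dehydrogenase. Cyclooxygenase-1 is commonly present at a steady level, whereas cyclooxygenase-2 is induced by cytokines and growth factors. In the heart, fibroblasts are known as a source of prostacyclin and prostaglandin E2.

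The libraries held 18441428 and 18287644 counts in OENr4a3 and 14275501 and 16461333 in OECtrl. Nr4a3 itself had 3184 and 3196 reads in OENr4a3 and 36 and 31 in OECtrl. All 12 cardiac fibroblast markers were present, 4 higher and 3 lower in OENr4a3 by the test described with the members. That is 58.3% called, against 23.0% of all tested genes. Their summed level was 34696 and 35671 CPM (counts scaled to the TMM-adjusted library size) in OENr4a3 and 32413 and 26315 CPM in OECtrl. A count of 0 allows up to 3 reads, or 0.165 and 0.167 CPM in OENr4a3 and 0.208 and 0.179 CPM in OECtrl, counting error only.

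Of the 10 genes, Hpgd and Ptgs1 fell in OENr4a3, none rose, 5 did not pass the test and 3 had too few reads to test. Hpgd was 7.08-fold lower and Ptgs1 2.24-fold lower, while Ptgs2, the inducible counterpart of Ptgs1, was not distinguished between the groups. The abundant synthase Ptgis and the carrier Slco2a1 lay lower in both OENr4a3 libraries without passing. The test was edgeR's quasi-likelihood F-test over all genes, with an adjusted p (Benjamini-Hochberg) under 0.05 as the threshold. By that rule 23.0% of 15029 tested genes differed, 11.0% being lower and 12.0% higher in OENr4a3, beside 2 of the 7 tested members, none of them higher. At an unadjusted p under 0.05, 4 members were lower and 0 higher, and DESeq2 and limma-voom each called 2 lower and 0 higher. The 2 groups did not overlap for 6 of the 7 tested members, against 68.2% of all tested genes.

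**Figure D1:**
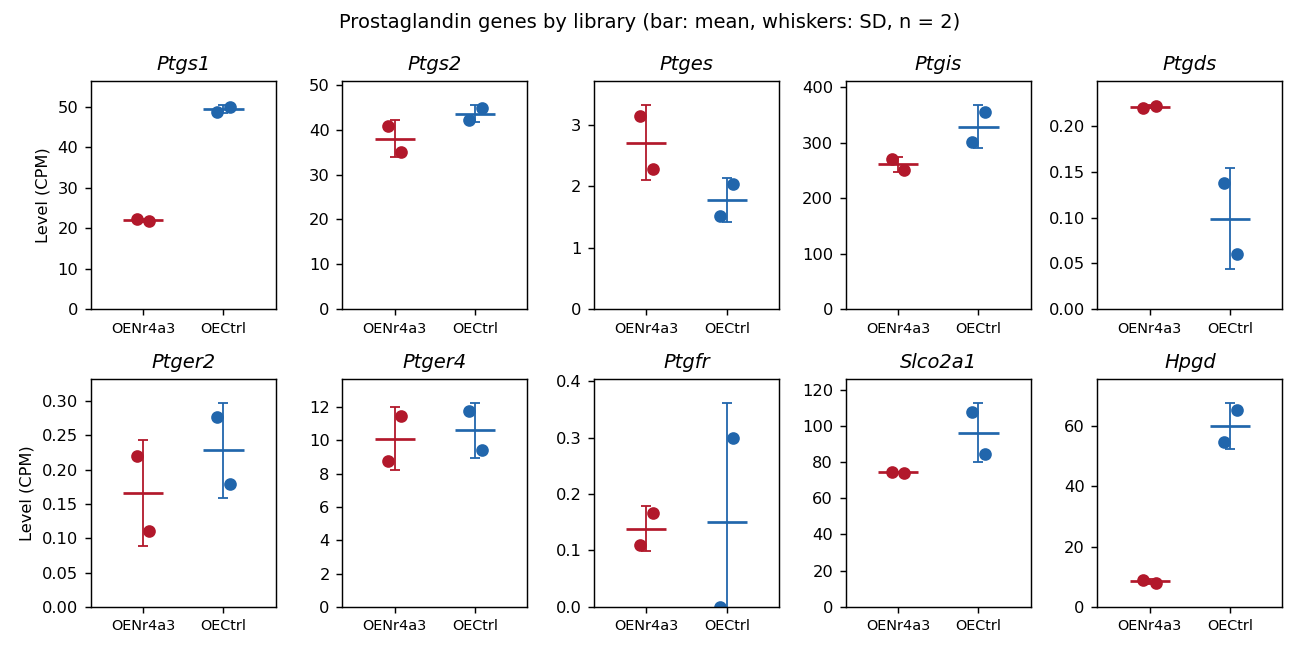
Level of each of the 10 genes in CPM (vertical axis, a separate scale per panel) in the 2 OENr4a3 libraries (red) and the 2 OECtrl libraries (blue). Points are libraries, bars means and whiskers the SD. The groups are far apart for Hpgd and Ptgs1, and Ptgds, Ptger2 and Ptgfr lie at or below 0.299 CPM in every library.

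Ptgs1 encodes cyclooxygenase-1. It measured 22.3 and 21.7 CPM in the OENr4a3 libraries (404 and 390 reads), against 48.6 and 50.01 CPM in the OECtrl libraries (703 and 836 reads). Both OENr4a3 libraries were below both OECtrl libraries, and replicates differed by little in either group. The log2 fold change was -1.17 ± 0.113 SE (95% interval -1.42 to -0.91, adjusted p = 0.000317), and 6.05% of all tested genes had a larger difference in either direction. The call was kept in all 12 other settings of the test, at log2 fold changes of -1.21 to -1.14.

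Ptgs2 encodes cyclooxygenase-2. It measured 40.9 and 35.1 CPM in OENr4a3 (743 and 631 reads) and 42.2 and 44.9 CPM in OECtrl (610 and 750 reads). The OENr4a3 libraries lay just below the OECtrl ones, and the group means differed by less than the OENr4a3 replicates did. The log2 fold change was -0.20 ± 0.121 SE (95% interval -0.47 to 0.08, adjusted p = 0.26), and it did not pass in any of the 12 other settings (adjusted p 0.0929 to 0.888). The interval allows a fall of up to 0.47 or a rise of up to 0.08 on the log2 scale.

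Per exonic length, which allows 2 genes to be compared, the order of the cyclooxygenases differed between the groups. Ptgs2 exceeded Ptgs1 in both OENr4a3 libraries, at 8.94 and 7.67 RPKM (CPM per kilobase of exonic length) for Ptgs2 and 5.73 and 5.59 RPKM for Ptgs1. In OECtrl, Ptgs2 stood at 9.22 and 9.80 RPKM and Ptgs1 at 12.5 and 12.9 RPKM. The ratio of the Ptgs2 to the Ptgs1 level was therefore 1.56 and 1.37 in OENr4a3 and 0.736 and 0.761 in OECtrl. With 2 libraries a group no exact permutation test of such a ratio can go below p = 0.333, and none was made.

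The promoter windows of this pair are shown because 1 of the genes fell and the other did not pass. Ptgs1 lies on chromosome 2 from 36230426 to 36252272 (plus strand, GRCm38; ENSMUSG00000047250) and Ptgs2 on chromosome 1 from 150100031 to 150108227 (plus strand; ENSMUSG00000032487). Each window runs from 250 bases before to 50 bases after the RefSeq start (GRCm38.p6), chr2:36230176-36230475 for Ptgs1 and chr1:150099781-150100080 for Ptgs2, both on the plus strand. Capitals mark matches on either strand to the searched motifs, and the Ptgs1 window has none.
Ptgs1: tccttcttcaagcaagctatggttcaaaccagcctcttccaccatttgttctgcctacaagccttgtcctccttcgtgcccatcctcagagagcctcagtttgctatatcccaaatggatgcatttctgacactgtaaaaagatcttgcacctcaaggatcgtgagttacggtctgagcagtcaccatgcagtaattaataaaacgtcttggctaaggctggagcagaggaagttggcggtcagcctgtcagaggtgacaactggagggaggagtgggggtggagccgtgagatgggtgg
Ptgs2: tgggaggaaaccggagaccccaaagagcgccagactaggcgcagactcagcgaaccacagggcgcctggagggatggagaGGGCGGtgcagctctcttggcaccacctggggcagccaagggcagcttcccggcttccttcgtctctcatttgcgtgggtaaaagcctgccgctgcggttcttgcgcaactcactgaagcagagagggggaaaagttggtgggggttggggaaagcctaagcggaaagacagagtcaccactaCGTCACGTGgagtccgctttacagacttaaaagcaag

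The motifs searched were the NR4A monomer site NBRE (AAAGGTCA), the cyclic AMP response element (TGACGTCA) and its shorter core (TGACG), the AP-1 site (TGANTCA), the E-box (CACGTG), the GC box (GGGCGG), the CCAAT box (CCAAT) and the TATA box (TATAAA). The Ptgs2 window held a GC box, present in 35.7% of 32851 RefSeq windows, the core of the cyclic AMP response element (20.8%) and an E-box (7.15%), and the last 2 overlap. None of the 9 windows available for these genes held the letters of the NBRE, which 1.51% of all windows hold. These are letter matches in a short window and show nothing about binding there or elsewhere.

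Of the terminal synthases, Ptgis was by far the most abundant of the 10 genes. It encodes prostacyclin synthase and lies on chromosome 2 from 167191805 to 167240604 (minus strand, GRCm38; ENSMUSG00000017969). It measured 270.0 and 251.5 CPM in OENr4a3 (4902 and 4520 reads), against 300.9 and 355.7 CPM in OECtrl (4348 and 5946 reads). Both OENr4a3 libraries were lower, and the 2 OECtrl libraries lay farther apart than the nearer one lay from the OENr4a3 mean. Its log2 fold change was -0.33 ± 0.109 SE (95% interval -0.58 to -0.09, adjusted p = 0.0541), just outside the threshold. It passed without OECtrl replicate 1 (-0.44, adjusted p = 0.000122) and without OECtrl replicate 2 (-0.21, adjusted p = 0.0235), where the spread comes from the OENr4a3 pair alone, and with upper-quartile scaling (-0.37, adjusted p = 0.0417). Without OENr4a3 replicate 1 or 2 it stood at adjusted p = 0.333 and 0.522.

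Ptges encodes the inducible, microsomal prostaglandin E synthase and was scarce. It lies on chromosome 2 from 30889471 to 30929863 (minus strand, GRCm38; ENSMUSG00000050737). It had 57 and 41 reads in OENr4a3 (3.14 and 2.28 CPM) and 22 and 34 in OECtrl (1.52 and 2.03 CPM). Both OENr4a3 libraries were higher, and the highest OECtrl library came close to the lowest OENr4a3 library. Its log2 fold change of 0.60 had an SE of 0.323 and did not pass (95% interval -0.13 to 1.32, adjusted p = 0.201). It ranged from 0.36 without OENr4a3 replicate 1 to 0.83 without OECtrl replicate 2 and passed in none of the 12 settings.

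Ptgds, the lipocalin-type prostaglandin D synthase, was close to absent. It had 4 and 4 reads in OENr4a3 and 2 and 1 in OECtrl, too few to test. The ratio of OENr4a3 to OECtrl over the summed reads was 2.3004, with a 95% counting interval of 0.552 to 13.5, which allows a difference in either direction.

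Per exonic length, Ptgis stood at 101.6 ± 5.11 RPKM in OENr4a3 and 127.9 ± 15.1 RPKM in OECtrl (SD, n = 2 each). The level of Ptges was 0.689 ± 0.154 RPKM in OENr4a3 and 0.452 ± 0.092 in OECtrl. The other prostaglandin E synthases were above Ptges in all 4 libraries: Ptges3, the cytosolic form also known as the HSP90 co-chaperone p23, at 33.3 ± 1.44 RPKM in OENr4a3 and 41.7 ± 9.73 in OECtrl, and the membrane-associated Ptges2 at 3.37 ± 0.388 and 4.29 ± 0.376 RPKM in the same order. Haematopoietic prostaglandin D synthase, Hpgds, stood at 1.19 ± 0.126 RPKM in OENr4a3 and 1.47 ± 0.334 in OECtrl, above Ptgds in every library. Thromboxane synthase, Tbxas1, stood at 0.423 ± 0.00132 RPKM in OENr4a3 and 0.508 ± 0.00771 in OECtrl.

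The list of 10 other terminal synthases and reductases, written down with earlier results of these data known, had 9 tested genes. None rose, with 0 higher at an unadjusted p under 0.05 and 0 in DESeq2 and limma-voom, and 1 fell. The share called was thus 11.1%, against 23.0% of all tested genes. The median log2 fold change was -0.31 against -0.01 over all tested genes. The gene that fell was Akr1b8, an aldo-keto reductase, at 69.7 ± 0.492 CPM in OENr4a3 and 100.1 ± 5.09 CPM in OECtrl (log2 fold change -0.52, adjusted p = 0.00954). It did not pass without OENr4a3 replicate 1 (adjusted p = 0.178) or 2 (0.166), and stood at -0.28 with the trend with gene length removed. Those that did not pass were Akr1b3 (-0.31), Ptges2 (-0.35), Ptges3 (-0.33), Cbr1 (-0.30), Gstm2 (-0.21), Prxl2b (-0.36), Hpgds (-0.30) and Tbxas1 (-0.26), all values being log2 fold changes. The log2 fold change of Prxl2b turned to 0.08 without OECtrl replicate 2. Akr1c18 was below the filter, with 0 and 0 reads in OENr4a3 and 4 and 13 in OECtrl.

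Of the receptors among the 10 genes, only Ptger4 was abundant enough to test. It encodes the EP4 receptor for prostaglandin E2, which raises cyclic AMP, and lies on chromosome 15 from 5206661 to 5244187 (minus strand, GRCm38; ENSMUSG00000039942). It measured 8.76 and 11.5 CPM in OENr4a3 (159 and 206 reads) and 11.8 and 9.45 CPM in OECtrl (170 and 158 reads). The groups overlapped. With a log2 fold change of -0.07 ± 0.189 SE (95% interval -0.49 to 0.36, adjusted p = 0.827), Ptger4 did not pass, and its sign turned without OENr4a3 replicate 1 (0.12) or OECtrl replicate 1 (0.10). The protein-coding gene Ttc33 overlaps Ptger4 on the other strand, with 553 and 561 reads in OENr4a3 and 455 and 670 in OECtrl. The sources used here do not say whether counting used strand, so reads from such a pair cannot be told apart.

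Ptger2, which encodes the EP2 receptor for prostaglandin E2, had 4 and 2 reads in OENr4a3 and 4 and 3 in OECtrl (ratio 0.739, 95% counting interval 0.205 to 2.57). Ptgfr, the receptor for prostaglandin F2-alpha, had 2 and 3 reads in OENr4a3 and 0 and 5 in OECtrl (ratio 0.863, 95% counting interval 0.199 to 3.75). Neither could be tested. At this depth the OENr4a3 to OECtrl ratio of Ptgs1, 0.445, lies inside both intervals and that of Hpgd, 0.141, outside both.

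Across all 9 prostanoid receptors, the thromboxane receptor Tbxa2r had the highest level per length, at 6.02 ± 0.144 RPKM in OENr4a3 and 5.29 ± 1.21 in OECtrl. Ptger4 came next, at 1.52 ± 0.287 RPKM in OENr4a3 and 1.596 ± 0.246 in OECtrl, and no library of either gene overlapped the other gene's levels. Ptger1, the EP1 receptor, followed at 0.598 ± 0.0329 RPKM in OENr4a3 and 0.574 ± 0.0673 in OECtrl. The prostacyclin receptor Ptgir stood at 0.357 ± 0.00922 RPKM in OENr4a3 and 0.259 ± 0.0142 in OECtrl, and the EP3 receptor Ptger3 at 0.233 ± 0.0947 and 0.276 ± 0.0921 RPKM in the same order. In OENr4a3 both Ptgir libraries were above both Ptger3 libraries, whereas in OECtrl the Ptgir level lay within the spread of Ptger3. Ptger2, Ptgdr2 and Ptgfr were each below 0.07 RPKM in every library, with no order beyond their spread, and Ptgdr had 0 reads in all 4. Ptgir was far scarcer than Ptgis, the synthase of its ligand, with 22 and 21 reads in OENr4a3 and 12 and 15 in OECtrl.

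None of these other receptors passed the test, at log2 fold changes of 0.46 for Ptgir, 0.18 for Tbxa2r, 0.07 for Ptger1 and -0.23 for Ptger3. The signs of the last 3 turned in some settings. Of the list of 7 receptors and a receptor partner, 5 were tested, 1 rose and none fell, with 0 lower at an unadjusted p under 0.05 and 0 in DESeq2 and limma-voom. The gene that rose was Ptgfrn, whose product is known to dampen the prostaglandin F receptor, at 278.8 ± 1.2 CPM in OENr4a3 and 213.9 ± 32.5 CPM in OECtrl (log2 fold change 0.38, adjusted p = 0.0427). It did not pass without OENr4a3 replicate 1 (adjusted p = 0.30) or 2 (0.29), with upper-quartile scaling (0.0604), without the filter on low counts (0.0798) or with the length trend removed, where it stood at 0.08 (0.53).

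Slco2a1 encodes the prostaglandin transporter, which takes prostaglandins up into the cell. It lies on chromosome 9 from 102988712 to 103096002 (plus strand, GRCm38; ENSMUSG00000032548). It measured 74.5 and 74.2 CPM in OENr4a3 (1353 and 1333 reads) and 107.7 and 84.6 CPM in OECtrl (1556 and 1414 reads). Both OENr4a3 libraries were nearly equal and below both OECtrl libraries, of which replicate 1 was the higher. Slco2a1 had a log2 fold change of -0.37 ± 0.128 SE (95% interval -0.66 to -0.08, adjusted p = 0.0633), outside the threshold. Fold changes followed gene length, longer genes lying higher in OENr4a3 (Spearman's rho of log2 fold change with exonic length 0.42 across 15029 genes, which are not independent replicates). Slco2a1 has the longest exonic length of the 10 genes, 13545 bases, and with that trend removed it passed at -0.76 (adjusted p = 0.000238). It also passed without OECtrl replicate 1 (-0.18, adjusted p = 0.0461) or 2 (-0.53, adjusted p = 0.000165) and with upper-quartile scaling (-0.41, adjusted p = 0.0461).

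Hpgd encodes the NAD-dependent dehydrogenase that starts the inactivation of prostaglandins by oxidising their hydroxyl group. It lies on chromosome 8 from 56294585 to 56321043 (plus strand, GRCm38; ENSMUSG00000031613). It measured 9.03 and 7.90 CPM in OENr4a3 (164 and 142 reads), against 54.6 and 65.4 CPM in OECtrl (789 and 1093 reads). The highest OENr4a3 library lay far below the lowest OECtrl library. The log2 fold change was -2.82 ± 0.147 SE (95% interval -3.16 to -2.49, adjusted p = 1.05e-05), and 0.645% of all tested genes had a larger difference in either direction. It was the 57th largest negative log2 fold change of the 15029 genes. The call was kept in all 12 other settings, at log2 fold changes of -2.94 to -2.60. Gm45540, which overlaps Hpgd on the same strand, had 4 and 6 reads in OENr4a3 and 10 and 13 in OECtrl.

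The promoter window of Hpgd, the member with the largest difference, is printed in the same way (RefSeq, GRCm38.p6, chr8:56294302-56294601, plus strand).
Hpgd: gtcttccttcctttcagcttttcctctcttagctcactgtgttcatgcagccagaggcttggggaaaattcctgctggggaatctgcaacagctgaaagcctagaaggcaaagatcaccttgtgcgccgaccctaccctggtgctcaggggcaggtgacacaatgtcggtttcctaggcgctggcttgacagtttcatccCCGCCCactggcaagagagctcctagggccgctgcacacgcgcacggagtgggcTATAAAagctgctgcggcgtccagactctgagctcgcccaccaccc

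The capitals mark a GC box, which begins 50 bases before the RefSeq start on the minus strand, and a TATA box, present in 13.6% of all windows and beginning at base 5 after that start. GENCODE puts the start of Hpgd at 56294585, farther downstream in this window, and both motifs lie before that start. The GC content of the window was 58%, against a median of 52.7% over all windows.

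Per exonic length, Hpgd stood at place 5 of the 10 genes in OENr4a3 and at place 2 in OECtrl. Its level was 5.37 and 4.69 RPKM in OENr4a3 and 32.4 and 38.9 RPKM in OECtrl. Within a library, the ratio of the Hpgd to the Ptgs2 level was 0.601 and 0.612 in OENr4a3 and 3.52 and 3.97 in OECtrl. The ratio of Hpgd to Ptgs1, which both fell, was 0.937 and 0.840 in OENr4a3 and 2.59 and 3.02 in OECtrl. The ratio of the carrier Slco2a1 to Hpgd was 1.03 and 1.17 in OENr4a3 and 0.245 and 0.161 in OECtrl. Slco2a1 and Hpgd differ in exonic length (13545 and 1683 bases), and this ratio includes the trend of fold changes with length. With that trend removed, their log2 fold changes were -0.76 and -2.60, against -0.37 and -2.82 as reported. In OENr4a3 the levels of Ptgs1, Slco2a1 and Hpgd lay between 4.69 and 5.73 RPKM, and Hpgd was below the other 2 genes in each library.

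**Figure D2:**
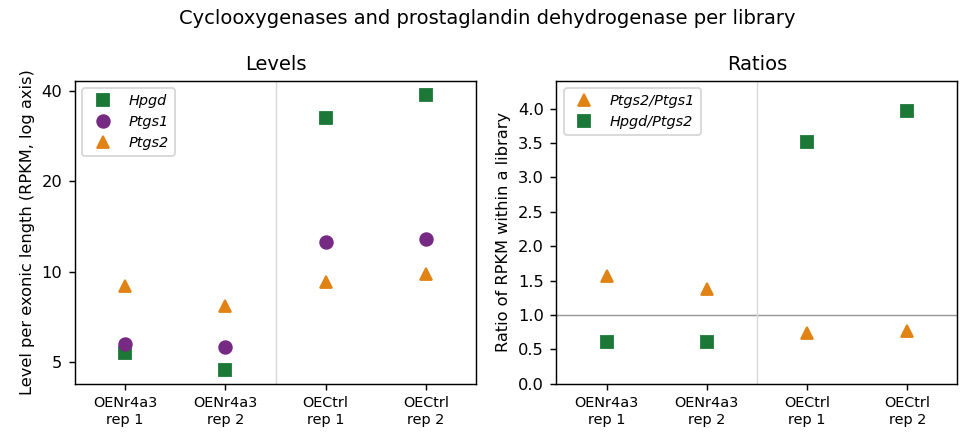
Left, level per exonic length (RPKM, log axis) of Hpgd, Ptgs1 and Ptgs2 in each library; right, the ratios of Ptgs2 to Ptgs1 and of Hpgd to Ptgs2 within each library. The Ptgs2 to Ptgs1 ratio was above 1 in both OENr4a3 libraries and below 1 in both OECtrl libraries, and the Hpgd to Ptgs2 ratio was the other way round.

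Other genes of prostanoid breakdown and transport moved both ways. Of the 9 listed, 8 were tested, 2 rose and 3 fell (median log2 fold change 0.09), or 62.5% called against 23.0% of all tested genes. Akr1c14, a hydroxysteroid dehydrogenase of the aldo-keto reductase family, fell to 5.89 ± 0.232 CPM in OENr4a3, against 14.7 ± 1.48 CPM in OECtrl (log2 fold change -1.32, adjusted p = 0.00115), and kept its call in all 12 other settings. Ptgr1, the reductase that acts on the product of Hpgd, fell to 34.8 ± 0.559 CPM in OENr4a3, against 54.97 ± 8.64 CPM in OECtrl (-0.66, adjusted p = 0.00986). The carbonyl reductase Cbr3 fell to 11.2 ± 1.21 CPM in OENr4a3, against 17.6 ± 3.81 CPM in OECtrl (-0.67, adjusted p = 0.029). Ptgr2, a reductase with the same kind of substrate as Ptgr1, measured 38.1 ± 1.06 CPM in OENr4a3 and 34.7 ± 2.29 CPM in OECtrl and did not pass (0.13, adjusted p = 0.42).

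The 2 carriers that passed were higher in OENr4a3, unlike Slco2a1. Abcc4, the multidrug resistance protein known to export prostaglandins, rose to 16.96 ± 1.56 CPM in OENr4a3, against 10.5 ± 1.53 CPM in OECtrl (log2 fold change 0.70, adjusted p = 0.0168). Slco3a1, an organic anion carrier known to take prostaglandins, rose to 50.6 ± 3.06 CPM in OENr4a3, against 38.1 ± 1.19 CPM in OECtrl (0.41, adjusted p = 0.0301). Ptgr1 did not pass without OENr4a3 replicate 1 (adjusted p = 0.072) or 2 (0.0558), and Abcc4 without replicate 1 (0.1105). Cbr3 did not pass without OENr4a3 replicate 2 (0.18), without OECtrl replicate 2 (0.0852), without the filter on low counts (0.0761) or with the length trend removed (0.0904), and Slco3a1 without either OENr4a3 library (0.189 and 0.384), without the filter (0.0615) or with the length trend removed (0.17, adjusted p = 0.239).

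**Figure D3:**
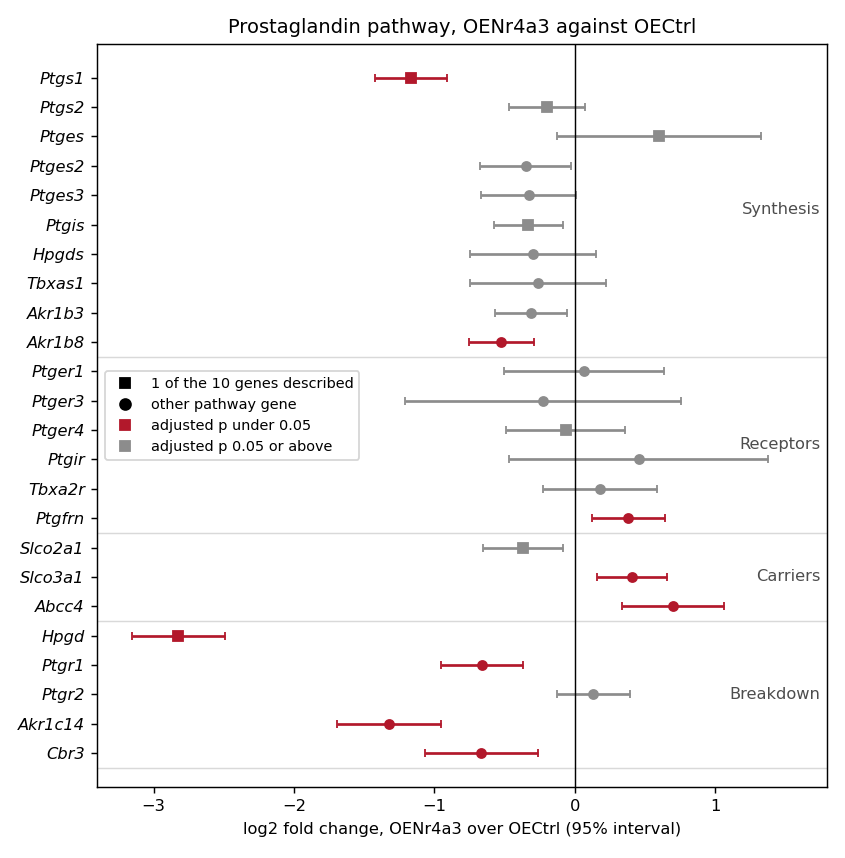
Log2 fold change of OENr4a3 over OECtrl (horizontal axis) with its 95% interval for tested genes of prostaglandin synthesis, reception, transport and breakdown, from edgeR's fit over all genes. Squares are the 10 genes described, circles other pathway genes, and red marks an adjusted p under 0.05. Hpgd lies at -2.82, farther from 0 than any other gene shown.

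Upstream of the cyclooxygenases, 13 of 21 listed genes of arachidonate release and reacylation were tested, 1 rose and 1 fell (median log2 fold change -0.03). That is 15.4% called, against 23.0% of all tested genes. Monoacylglycerol lipase, Mgll, fell to 106.1 ± 10.1 CPM in OENr4a3, against 149.8 ± 21.5 CPM in OECtrl (log2 fold change -0.50, adjusted p = 0.0234). Diacylglycerol lipase alpha, Dagla, rose to 12 ± 1.91 CPM in OENr4a3, against 5.83 ± 3 CPM in OECtrl (1.06, adjusted p = 0.0317). Mgll did not pass without OENr4a3 replicate 1 (adjusted p = 0.101) or 2 (0.323), nor Dagla without OECtrl replicate 2 (0.59, adjusted p = 0.0542), and neither passed without the filter on low counts (0.0652 and 0.0748). Dagla stood at 1.69 without OECtrl replicate 1. The main cytosolic phospholipase, Pla2g4a, named here after its value was seen, measured 62 ± 0.438 CPM in OENr4a3 and 57.3 ± 3.14 CPM in OECtrl (0.11, adjusted p = 0.455; -0.032 with the length trend removed).

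Downstream of the receptors that act through cyclic AMP, 26 of 27 listed adenylyl cyclases, phosphodiesterases and related genes were tested. Of these 7 rose and none fell, with 0 lower at an unadjusted p under 0.05 and 0 in DESeq2 and limma-voom, and the median log2 fold change was 0.34 against -0.01 over all tested genes. The share called was 26.9%, against 23.0% of all tested genes. The phosphodiesterases, which break cyclic AMP down, included Pde4d at 26.5 ± 0.853 CPM in OENr4a3 and 8.45 ± 1.55 CPM in OECtrl (log2 fold change 1.66, adjusted p = 0.000298) and Pde3a at 324.5 ± 3.27 CPM in OENr4a3 and 181.4 ± 20.4 CPM in OECtrl (0.84, adjusted p = 0.00133). Pde7b (0.95, adjusted p = 0.00397) and Pde7a (0.57, adjusted p = 0.0149) rose as well, as did the cyclase Adcy3 (0.83, adjusted p = 0.00388) and the regulatory subunit Prkar2a of protein kinase A (0.39, adjusted p = 0.024). With the length trend removed, Pde3a stood at 0.46, Pde7b at 0.56 and Pde4d at 1.30, each still past the threshold, and Prkar2a did not pass (adjusted p = 0.0707). Without OENr4a3 replicate 1 or 2, Pde7a and Prkar2a did not pass.

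Of 19 lipoxygenase, leukotriene and epoxide genes, the other arms of arachidonic acid metabolism, 10 were tested, none rose (0 at an unadjusted p under 0.05 and 0 in DESeq2 and limma-voom) and 3 fell (median log2 fold change -0.19), or 30.0% called against 23.0% of all tested genes. Alox5ap, the activating protein of 5-lipoxygenase, fell to 4.62 ± 1.81 CPM in OENr4a3, against 8.51 ± 0.784 CPM in OECtrl (-0.88, adjusted p = 0.0376). The leukotriene receptor Cysltr1 fell to 1.33 ± 0.166 CPM in OENr4a3, against 3.13 ± 0.367 CPM in OECtrl (-1.23, adjusted p = 0.0228). The third, named after its values were seen, was Mgst2, a scarce microsomal glutathione transferase. It had 3 and 5 reads in OENr4a3 and 24 and 31 in OECtrl (0.222 ± 0.0799 CPM in OENr4a3 and 1.76 ± 0.137 CPM in OECtrl, log2 fold change -2.95 ± 0.509 SE, adjusted p = 0.00586), and passed in all 12 other settings. Alox5ap did not pass without OENr4a3 replicate 2 (-0.52, adjusted p = 0.297), without OECtrl replicate 1 (0.0512), without the filter on low counts (0.0879) or with the length trend removed (0.101). Cysltr1 did not pass without OENr4a3 replicate 1 (0.16) or 2 (0.0776) or in DESeq2 (0.0552).

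Of 17 transcription and RNA-stability factors known to act on Ptgs2 or Ptges, all were tested and 1 passed in edgeR. This was 5.88% of the list, against 23.0% of all tested genes. None rose (4 were higher at an unadjusted p under 0.05), and DESeq2 and limma-voom called 0 in either direction. Fos, a subunit of AP-1, measured 10.7 ± 0.0754 CPM in OENr4a3 and 14.9 ± 1.74 CPM in OECtrl (log2 fold change -0.48, adjusted p = 0.049), and 7 of the 12 other settings put it outside the threshold. Without OENr4a3 replicate 1 or 2 or OECtrl replicate 2 its adjusted p was 0.288, 0.275 and 0.133.

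Markers of other cell types were also compared between the groups. Of 12 mesothelial and epicardial markers 7 fell and 1 rose, and their summed level was 860 and 829.9 CPM in OENr4a3 and 1242 and 1309 CPM in OECtrl. Of 12 macrophage markers 8 fell and none rose (0 at an unadjusted p under 0.05 and 0 in DESeq2 and limma-voom), with summed levels of 688.9 and 664.6 CPM in OENr4a3 and 1040 and 1021 CPM in OECtrl, led by Lyz2 and Cd68. All 10 hepatocyte markers fell, with summed levels of 24.3 and 24 CPM in OENr4a3 and 110.2 and 92.8 CPM in OECtrl, led by Trf and Alb, and Apoa1, Ttr and Fgb had 0 reads in OENr4a3. Of 10 endothelial markers 2 fell, with summed levels of 55.1 and 61.3 CPM in OENr4a3 and 67.96 and 70.1 CPM in OECtrl. Of 9 smooth muscle and pericyte markers 8 were tested, 3 being higher and 3 lower. The 9 summed to 1949 and 1994 CPM in OENr4a3 and 2593 and 2691 CPM in OECtrl. Of 10 cardiomyocyte markers 4 were tested, Myh6 and Ttn being higher and Tnnt2 lower. The 10 summed to 264.3 and 292 CPM in OENr4a3 and 453.3 and 500.1 CPM in OECtrl. Tnnt2 alone supplied 250.1 and 283.9 CPM in OENr4a3 and 447.6 and 494.9 CPM in OECtrl. Myh6 measured 4.20 ± 1.77 CPM in OENr4a3 and 0.687 ± 0.887 CPM in OECtrl, and Ttn 1.99 ± 0.171 and 0.620 ± 0.200 CPM in the same order. None of these markers was at 0 in all 4 libraries.

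The summed level in OENr4a3 was 0.657 of that in OECtrl for the macrophage markers, 0.662 for the mesothelial markers and 0.238 for the hepatocyte markers. The Hpgd level was 0.141 and the Ptgs1 level 0.445 of that in OECtrl. Single markers differed from these sums. The mesothelial sum includes Aldh1a2, the 1 marker of that list that rose (208.4 CPM in OENr4a3, 36.3 CPM in OECtrl). The most abundant mesothelial markers, Upk1b and Msln, each stood at 0.416 of OECtrl. Of the hepatocyte markers, Trf stood at 0.425 and Alb at 0.00135 of OECtrl, and Trf supplied 23.3 CPM of the OENr4a3 sum. Ptgs1, Hpgds, Tbxas1, Alox5ap and Cysltr1 are also known to be expressed by macrophages. The part of other cell types in the values of Hpgd, Ptgs1 and the leukotriene genes was not tested, and in bulk libraries fewer cells of a type and less RNA per cell cannot be told apart.

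**Figure D4:**
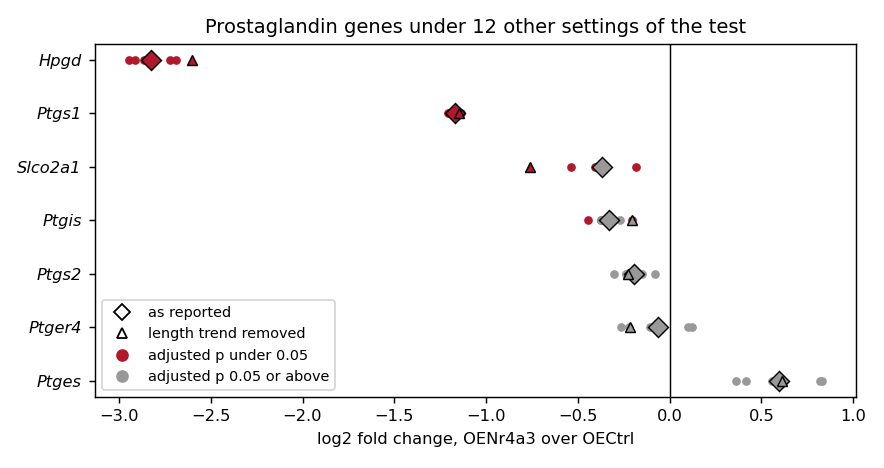
Log2 fold change of OENr4a3 over OECtrl (horizontal axis) for the 7 tested genes as reported (diamonds) and under 12 other settings (circles, or triangles where the trend with gene length was removed), red where the adjusted p was under 0.05. Hpgd and Ptgs1 passed in every setting shown, Slco2a1 and Ptgis only in some, and Ptgs2, Ptger4 and Ptges in none.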

How the data were processed

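RNA of cultured mouse cardiac fibroblasts was extracted with TRIzol, depleted of ribosomal RNA and sequenced as stranded paired-end libraries, per the labels' protocols, although the molecule label says polyA RNA. The authors deposited whole-number counts per Ensembl gene for 4 libraries, with exonic lengths and FPKM, per the file headers. The deposited FPKM were not used for results; 1 FPKM column with no replicate number was left out, and the other 3 equalled counts over exonic length and library total within 0.005. Trimmomatic 0.36, Subread 1.5.1, featureCounts, SAMtools and mm10 are named in the submitters' processing notes; the sources used here do not give the aligner, the annotation release or strand use. The table's gene coordinates equalled those of GENCODE M21 (GRCm38) for 1494 of 52083 shared identifiers, so coordinates are GENCODE's, matched by identifier. Promoter windows are RefSeq's, matched by symbol for 9 of 10 genes.

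Samples were grouped by title, 2 OENr4a3 and 2 OECtrl. Counts were fitted in R 4.3.3 with edgeR 4.0.16 (filterByExpr, TMM, glmQLFit, glmQLFTest, two-sided, no replicate block), adjusted over 15029 genes; the biological coefficient of variation was 0.0955. CPM and RPKM use TMM-scaled library sizes, and no pair of replicates agreed within sampling noise (chi-square over degrees of freedom 2.55 in OENr4a3 and 15.5 in OECtrl). The SE is the fitted log2 difference divided by the root of its F value. Counting intervals are Clopper-Pearson. The 12 other settings were DESeq2 1.42.0, limma-voom (limma 3.58.1), other size factors, other filters, a replicate block, a removed lowess trend with exonic length (span 0.3) and leaving out each library. On simulated counts of OENr4a3 against OECtrl (14749 genes tested) the fit found 49.2% of the 65 genes given a 1.5-fold change. It found 75.4% of the 65 given a 2-fold change and 95.5% of the 66 given a 4-fold one, while 7.69% of its 156 calls were false. Only these genes were changed, a far smaller share than was called in the real data, and such rates depend on that share.

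The members, lists and naming rule were chosen with earlier results of these data known. The rule names all members, every called list gene of at least 1 CPM (at most 6 a list), and all terminal synthases and receptors with a read. The 3 listed symbols with no row, Fam213b, Pla2g16 and Ptgr3, are other names of the listed Prxl2b, Plaat3 and Zadh2.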

Additional observations from a re-analysis of the deposited data

How the results depend on the processing

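The falls of Hpgd and Ptgs1 kept their direction and call in all 12 settings. The count of called genes over all genes was 3457 as reported, 1878 without the filter on low counts, 911 at an adjusted p under 0.01, and 1203 to 7133 when 1 library was left out, fewest without OENr4a3 replicate 2 and most without OECtrl replicate 1. The count of called members, each lower, was 4 with upper-quartile scaling and 2 to 4 when 1 library was left out (Ptgis and Slco2a1 added without either OECtrl library); the fit takes the spread of a group's lone library to be that of the other pair. Of log2 fold changes that did not pass, Ptger4 ranged from -0.26 to 0.12, Prxl2b from -0.68 to 0.083, Ptger1 from -0.054 to 0.19, Ptger3 from -0.70 to 0.15 and Tbxa2r from -0.027 to 0.44 with 1 library left out, and with the length trend removed Gstm2 stood at 0.0082, Ptger1 at -0.028 and Pla2g4a at -0.032. The cause of these shifts was not tested. The deviations of same-numbered libraries from their group means had a correlation of -0.0776. With 2 libraries a group this is a single value, mirrored for crossed numbers. It cannot decide whether the numbers pair the samples. The replicate block gave 3851 calls over all genes and 2 members. Depth limits Ptgds, Ptger2 and Ptgfr, with 0 to 5 reads a library.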

Other observations

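The deposited annotation offers a wider view of arachidonic acid metabolism, chosen after the data were seen. Of 101 genes under its KEGG pathway, 5 of them among the 10 described, 32 were tested, 7 were lower in OENr4a3 and 0 higher (0 at an unadjusted p under 0.05, and 0 in DESeq2 and limma-voom), with a median log2 fold change of -0.23. The share called was 21.9%, against 23.0% of all tested genes. Over all tested genes 11.0% were lower and 12.0% higher, and the median was -0.01. Besides Ptgs1, Akr1c14 and Cbr3, they included the glutathione peroxidases Gpx1 at 228.2 ± 9.52 CPM in OENr4a3 and 355.7 ± 57.9 CPM in OECtrl (-0.64, adjusted p = 0.00859), Gpx7 (-0.50, adjusted p = 0.0178) and Gpx8 (-0.40, adjusted p = 0.0332), which reduce peroxides. The remaining gene called lower was the scarce Cyp2e1, at 0.0278 ± 0.0393 CPM in OENr4a3 and 2.01 ± 1.66 CPM in OECtrl (-5.82, adjusted p = 0.00866). Its 2 OECtrl libraries were far apart, at 3.18 and 0.838 CPM, and it was not followed through the other settings. Gpx7 and Gpx8 each missed the threshold in 4 of 12 other settings. They missed it with the length trend removed (-0.24 and -0.13, adjusted p = 0.108 and 0.305) and with no low-count filter (0.0505 and 0.0841). They also missed it without OENr4a3 replicate 1 and without OENr4a3 replicate 2. Gpx1 missed the threshold in 1 setting, without OENr4a3 replicate 1.

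Of 72 genes whose deposited Gene Ontology terms name prostaglandins or prostanoids, all 10 described genes included, 49 were tested, 7 were higher and 8 lower. That is 30.6% called, against 23.0% of all tested genes. Among those picked after their values were seen, placental growth factor, Pgf, was higher, at 13.3 ± 0.376 CPM in OENr4a3 and 3.39 ± 0.877 CPM in OECtrl (log2 fold change 1.96, adjusted p = 0.000429). The vasopressin receptor Avpr1a was lower, at 21.6 ± 0.701 CPM in OENr4a3 and 46 ± 0.532 CPM in OECtrl (-1.09, adjusted p = 0.000453), as was endothelin-1, Edn1, at 9.11 ± 1.28 CPM in OENr4a3 and 17 ± 0.522 CPM in OECtrl (-0.90, adjusted p = 0.00603). These 3 calls were kept in all 12 other settings of the test.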
